A study of Mus musculus with 32 samples.

Results

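The genes described are 3 metallothioneins (Mt1, Mt2, Mt3) and 6 genes of iron handling (Trf, Tfrc, Fth1, Ftl1, Slc40a1, Cp), taken by symbol, 9 of 38989 gene IDs in the deposited table. They were followed across 4 libraries each made from a pool of 10 cells (pools 1 to 4) and 28 libraries each made from 1 cell (cells 1 to 28), all from mouse subventricular zone. The sample labels give the age as postnatal day 21, while the design text of the series speaks of adult mice, and the labels are followed here. This zone of the forebrain lines the lateral ventricle and makes new neurons after birth. Total RNA was sequenced with single-cell library methods. The labels name no animal, strain, sort or treatment, so how many mice the cells came from is unknown, and differences are described without a test.

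Iron travels in blood bound to transferrin, the product of Trf, and enters cells with the transferrin receptor, the product of Tfrc. Inside the cell it is stored in ferritin, a shell built from the heavy chain Fth1, which oxidises iron, and the light chain Ftl1, and it leaves through ferroportin, the product of Slc40a1, with the help of copper-containing ferroxidases such as ceruloplasmin, the product of Cp. In the brain, endothelial cells of the vessels take up iron from blood, and oligodendrocytes, the myelinating cells, are known for rich stores of ferritin and for making transferrin. Metallothioneins are small cysteine-rich proteins that bind zinc and copper. Mt1 and Mt2 are induced by metals and stress in many tissues, and Mt3 is best known from brain, where astrocytes express it.

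The storage, uptake and export genes share a regulatory sequence, shown because it links members with opposite roles. The iron-responsive element is an RNA hairpin with a short loop to which the iron regulatory proteins bind. In a 5′ UTR this binding blocks translation, and in a 3′ UTR it protects the messenger RNA. The search was for the letters C, then NNNNN, then CAGTGN with a last loop base other than G, then NNNNN able to pair with the first NNNNN, on the sense strand of 1 transcript a gene (GENCODE M21, GRCm38). The loop is in capitals:
Fth1, 5′ UTR, chr19:9982733-9982759, plus strand: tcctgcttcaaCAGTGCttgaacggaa
Ftl1, 5′ UTR, chr7:45459780-45459806, minus strand: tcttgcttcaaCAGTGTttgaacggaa
Slc40a1, 5′ UTR, chr1:45925466-45925492, minus strand: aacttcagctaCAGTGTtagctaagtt
Tfrc, 3′ UTR, chr16:32631220-32631246, plus strand: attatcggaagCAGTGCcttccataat
Tfrc, 3′ UTR, chr16:32631599-32631625, plus strand: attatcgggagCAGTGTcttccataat
Tfrc, 3′ UTR, chr16:32631664-32631690, plus strand: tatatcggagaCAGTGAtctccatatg
Tfrc, 3′ UTR, chr16:32631711-32631737, plus strand: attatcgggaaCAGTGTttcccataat
These letters stood in the 5′ UTR of 16 of 21780 genes (0.0735%), and Fth1, Ftl1 and Slc40a1 were 3 of the 16. In 3′ UTRs they stood in 83 genes (0.381%), and Tfrc, with 4 matches, was the only gene with more than 1. Mt1, Mt2, Mt3, Trf and Cp held no match in either UTR. A match is a description of letters and not of binding.

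Mt1 and Mt2 lie side by side on chromosome 8, and their upstream sequences are shown because their levels moved together across cells. The letters searched were the core of the metal-responsive element, TGCACNC or TGCGCNC, on both strands, in the RefSeq window of 300 bases that ends 50 bases after each gene's start (GRCm38.p6). The 250 bases before the start are printed, plus strand, with matches in capitals:
Mt1, chr8:94178839-94179088: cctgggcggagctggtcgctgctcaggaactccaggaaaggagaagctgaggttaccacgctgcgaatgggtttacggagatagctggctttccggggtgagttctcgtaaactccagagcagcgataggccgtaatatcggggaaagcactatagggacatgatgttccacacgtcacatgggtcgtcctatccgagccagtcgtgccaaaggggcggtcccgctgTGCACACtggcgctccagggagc
Mt2, chr8:94172368-94172617: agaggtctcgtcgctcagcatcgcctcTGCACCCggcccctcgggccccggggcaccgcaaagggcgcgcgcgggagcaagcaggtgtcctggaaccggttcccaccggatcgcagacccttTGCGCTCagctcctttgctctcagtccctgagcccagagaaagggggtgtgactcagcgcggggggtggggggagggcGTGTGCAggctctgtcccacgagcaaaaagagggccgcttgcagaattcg
The whole window of Mt1 held 3 matches, 1 of them in the 250 bases shown, and that of Mt2 held 4, with 3 of them shown. Of 32851 promoter windows, 25.7% held at least 1 match, 1.97% at least 3 and 0.517% at least 4. Of the 9 members, 7 matched the promoter table, all but Trf and Slc40a1. Mt3 held 1 match. Of the others, 1 of the 2 Tfrc windows held 2 overlapping matches, and the windows of Fth1, Ftl1 and Cp held none. Here too a match describes letters and not binding, and a link between matches and levels was not tested.

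Values are FPKM, fragments scaled to transcript length and to the mapped fragments of the library, so levels of different genes are compared per length. A gene is called found at FPKM of at least 1. Libraries differed in ways that touch these genes. Pools had 10492 to 12896 genes found, and cells 2107 to 10184. In 20 of 32 libraries the smallest values showed what 1 fragment is worth, which put depth there at roughly 6170000 to 20900000 fragments. At that depth FPKM of 1 stands for about 1.92 to 6.50 fragments of Mt2 and 4.49 to 15.2 of Fth1. An exact 0 need not mean absence: mt-Co1, a mitochondrial gene that every cell uses, was listed at 0 in all 32 libraries. The widely used nuclear genes Actb, Gapdh, Eef1a1, Rplp0, Ppia and Tpt1 were listed at 0 in no library. The case of mt-Co1 therefore does not show what a 0 of a nuclear gene means, and exact zeros are given as listed at 0. Cells 18 to 22 and cells 23 to 28 formed 2 sets in which genes high in 1 cell recurred at a low level in the others of the set (above 0 in 98.7% and 97.6% of such values, against 15.1% in cells 1 to 17). Results are therefore also given for cells 1 to 17, or under a 2% limit, where a value below 2% of the gene's highest in its set counts as 0.

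Each library was described by the list of cell type markers with the highest mean log2(FPKM + 1). Oligodendrocyte markers led pools 1 and 4 (means of 8.78 and 9.24), and endothelial markers led pools 2 and 3 (8.24 and 8.69). Pools are mixtures: choroid plexus markers came second in pool 1 at 7.54, microglial markers second in pool 2 at 6.98, markers of motile cilia second in pool 3 at 4.41 and astrocyte markers second in pool 4 at 6.90. Among the cells, endothelial markers led 8 (cells 1, 2, 3, 6, 7, 8, 16 and 17), with 9 to 12 of 12 markers found, against 0 to 5 in the other 20 cells. Oligodendrocyte markers led cells 4, 12 and 13, with 10 of 11 found in each, against 0 to 6 in the other 25. Astrocyte markers led cells 11 and 14, markers of motile cilia led cells 9 and 15, choroid plexus markers led cell 5 and neural stem cell markers led cell 10. Cell 10 had a neural stem cell mean of 4.82, and cell 15, led by motile cilia, had 4.98 for that list, so this list does not set cell 10 apart. Microglial markers led cells 18 to 21 and neuroblast markers cells 22 to 28. Cell 21 had a microglial mean of 4.70 and a neuroblast mean of 3.82, and it passed to the neuroblast list under the 2% limit. Cell 22 had 11 of 13 neuroblast markers found (mean of 6.14) and 11 of 12 microglial markers (3.01). It passed to the microglial list when lists were ranked by the share of markers found. All cells led by these last lists lie in the 2 sets, so cell type and library set cannot be told apart there.

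**Figure D1:**
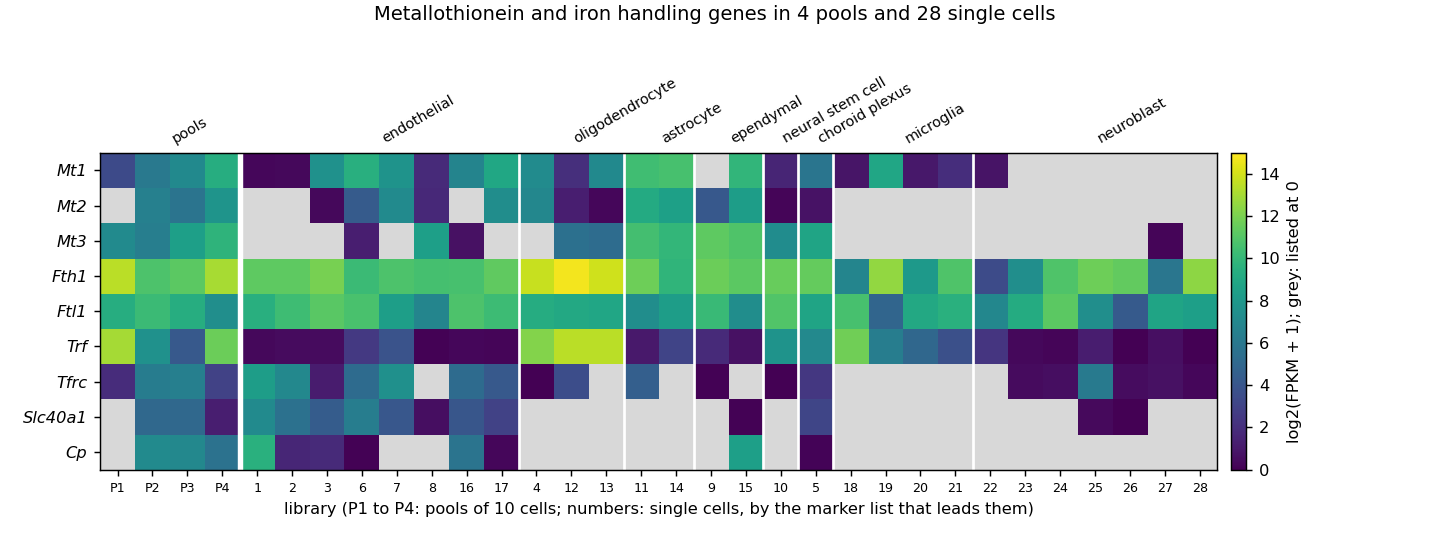
Level of the 9 genes (rows) in 4 pools (left) and 28 single cells grouped by the marker list that leads them (columns), as log2(FPKM + 1), with values listed at 0 in grey. Fth1 and Ftl1 are present in every column, Trf is bright in oligodendrocyte-led cells, in pools 1 and 4 and in the microglia-led cell 18, and most of the grey lies in cells 18 to 28.

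Both ferritin chains were found in every library, and they were the only members found in all 28 cells (100%, exact 95% Clopper-Pearson interval 87.7% to 100% for each). That interval covers the counting of cells only. Under the 2% limit, Fth1 of cells 18, 22 and 27 and Ftl1 of cells 19 and 26 were put at 0. Of 19851 genes found in at least 1 library, 126, or 0.635%, were found in all 28 cells. By mean FPKM, Fth1 ranked 7 among all genes in pools and 17 in cells, and Ftl1 ranked 176 in pools and 167 in cells. The other members were found less widely: Mt1 and Trf in 16 of 28 cells each (57.1%, interval 37.2% to 75.5%), Tfrc in 11, Mt2 and Mt3 in 10, Slc40a1 in 8 and Cp in 5 (17.9%, interval 6.06% to 36.9%). The limit also put Trf of cells 20, 21 and 22 and Mt1 of cell 21, counted here as found, at 0. The pools held 6, 9, 9 and 9 of the 9 genes. Without the limit, cells held 2 to 8, with a median of 6 in cells 1 to 17, of 3 in cells 18 to 22 and of 2 in cells 23 to 28.

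Transferrin (Trf, ENSMUSG00000032554, chr9:103204001-103230444, GRCm38) stood at 8091 and 3229 FPKM in pools 1 and 4, which oligodendrocyte markers led, and at 191 and 17.5 FPKM in pools 2 and 3. The oligodendrocyte-led cells 4, 12 and 13 had 4841, 11130 and 11153 FPKM. The other 14 of cells 1 to 17 had 0.0609 to 204 FPKM. How many of all genes part these few cells from the rest in the same way is not given here. The same holds for the groups of cells set apart for the members below. The highest of these were cell 10, led by neural stem cell markers, at 204 FPKM and cell 5, led by choroid plexus markers, at 131 FPKM. Outside cells 1 to 17, the microglia-led cell 18 had 3424 FPKM, and cells 19, 20 and 21 had 79.6, 31.1 and 11.4 FPKM. The values of cells 20, 21 and 22 lie under 2% of that of cell 18, the highest of their set. Gm20425, a gene model that overlaps Trf on the same strand, followed it (Pearson r = 0.91 over 28 cells), and how reads were split between them is not given in the sources used here.

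The transferrin receptor (Tfrc, ENSMUSG00000022797, chr16:32608920-32632794) showed another pattern. It had 76.4 and 89.6 FPKM in pools 2 and 3, led by endothelial markers, and 2.81 and 6.75 FPKM in pools 1 and 4. Of the 8 endothelial-led cells 7 had it found, with 322 FPKM in cell 1, 182 in cell 7, 127 in cell 2 and 1.22 to 37.3 in cells 3, 6, 16 and 17. Cell 8, with all 12 endothelial markers found, was the exception and had Tfrc listed at 0. Of the other 9 among cells 1 to 17, 3 had it found, at 4.48 FPKM in cell 5, 10.9 in cell 12 and 21.8 in cell 11. The endothelial-led cells and the rest thus overlapped. In cells 18 to 22 Tfrc was listed at 0 throughout, and in cells 23 to 28 only cell 25 passed FPKM of 1, with 70.1.

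The ferritin heavy chain (Fth1, ENSMUSG00000024661, chr19:9982703-9985092) had 11236, 1807, 2395 and 8517 FPKM in pools 1 to 4, a mean of 5989 ± 4631 (SD, n = 4). As for Trf, the pools led by oligodendrocyte markers held the higher values. The oligodendrocyte-led cells had 13559, 27238 and 15757 FPKM (cells 4, 12 and 13). Every other one of cells 1 to 17 lay between 891 and 3813 FPKM, with a median of 2476. In cells 18 to 28 the range widened to 9.87 FPKM in cell 22 and 6115 in cell 19. Under the 2% limit, Fth1 of cells 18, 22 and 27 was put at 0.

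The ferritin light chain (Ftl1, ENSMUSG00000050708, chr7:45457944-45459884) did not share this order. It had 653, 1204, 650 and 167 FPKM in pools 1 to 4, a mean of 669 ± 424 (SD, n = 4), and pool 4, with the lowest Ftl1 of the pools, had 8517 FPKM of Fth1. The oligodendrocyte-led cells had 466 to 627 FPKM, inside the range of 111 to 2297 FPKM of the other cells 1 to 17. The median was 1280 FPKM in endothelial-led cells, and the highest cells were cell 24 at 2421 and cell 3 at 2297 FPKM. Over 28 cells the 2 chains showed almost no linear relation (r = 0.0055, Spearman rho −0.053), and over cells 1 to 17 r was 0.0017.

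The ratio of Fth1 to Ftl1 FPKM varied widely. Like the Ftl1 levels and the r above, it leaves out the sequence copies and a microRNA locus inside Ftl1, Gm22133, described below. Their part differed between libraries: Gm22133 had 14021 FPKM in pool 3 and 3735 in pool 4. How far this shaped the ratio was not tested. It was 17.2, 1.5002, 3.69 and 50.9 in pools 1 to 4, and above 1 in 20 of 28 cells. In oligodendrocyte-led cells it was 21.6, 50.7 and 33.8 (cells 4, 12 and 13). In endothelial-led cells it ran from 0.713 to 13.9 with a median of 1.97, and in cell 10 it was 1.51. The extremes, 0.0725 in cell 18 and 209 in cell 19, lie in 1 library set, where the 2% limit put Fth1 of cell 18 and Ftl1 of cell 19 at 0.

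Ferroportin (Slc40a1, ENSMUSG00000025993, chr1:45908070-45925594), the exporter, was listed at 0 in pool 1 and had 32.4, 33.1 and 1.408 FPKM in pools 2, 3 and 4. Of the endothelial-led cells, 7 of 8 had it found, with 146 FPKM in cell 1, 79.7 in cell 6, 46.6 in cell 2 and 6.70 to 19.5 in cells 3, 7, 16 and 17. Cell 8 again was low, at 0.490 FPKM. Elsewhere only cell 5, led by choroid plexus markers, had it found, at 7.96 FPKM. It was listed at 0 in the 3 oligodendrocyte-led, 2 astrocyte-led and 4 microglia-led cells. Among the 9 members, ferroportin and the transferrin receptor had the highest Pearson r over 28 cells (0.77), with both found in 8 cells, and over cells 1 to 17 r was 0.78. By Spearman rho, Slc40a1 with Cp (0.79) and Mt1 with Mt2 (0.73) stood above this pair (0.66).

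Ceruloplasmin (Cp, ENSMUSG00000003617, chr3:19957054-20009145) was found in the fewest cells. It was listed at 0 in pool 1 and had 143, 128 and 49.9996 FPKM in pools 2, 3 and 4. Endothelial-led cell 1 had 745 FPKM, cell 15, led by motile cilia, had 350, and cell 16 had 54.7. Cells 2 and 3 had 2.03 and 2.39 FPKM, and the other 23 cells were under 1. Cells of 1 leading list thus differed widely, with 2 of 8 endothelial-led cells listed at 0. Hps3 overlaps Cp on the opposite strand, and the strand setting of the counting is not given in the sources used here.

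**Figure D2:**
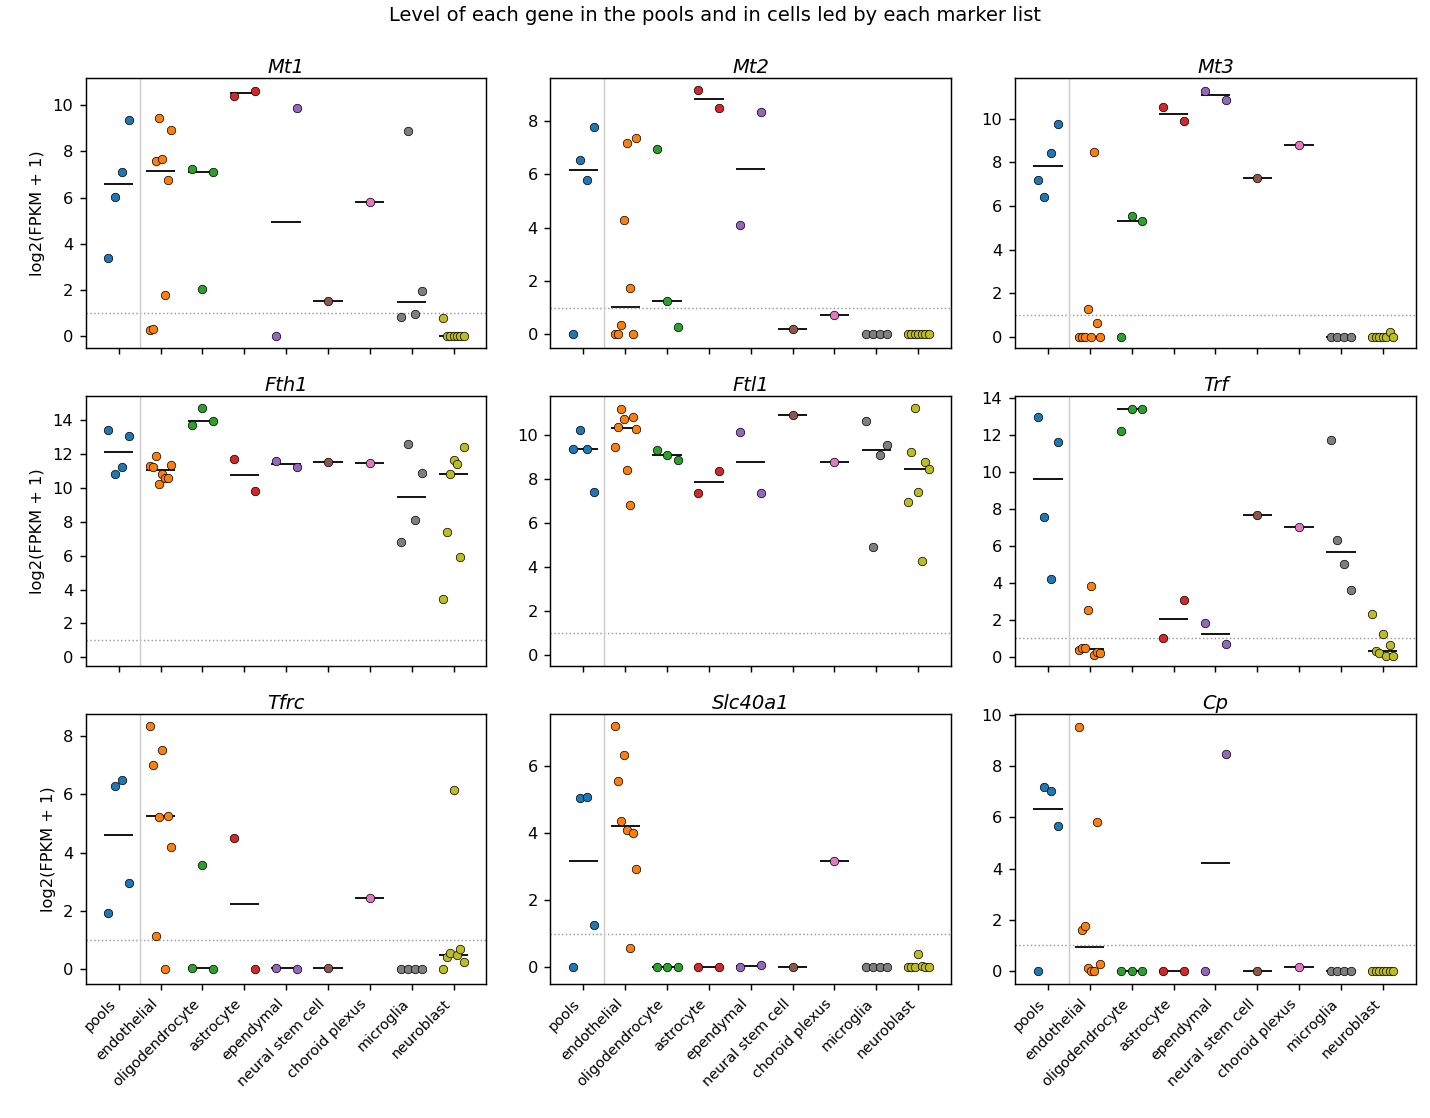
Each panel plots 1 gene as log2(FPKM + 1) for the 4 pools (left) and for the cells led by each marker list. Points are libraries, short bars are medians, and the dotted line marks FPKM of 1. Fth1 and Trf are highest in the oligodendrocyte column, Tfrc and Slc40a1 in the endothelial column, and Mt1 and Mt2 in the astrocyte column. Mt3 is highest in the astrocyte and ependymal columns.

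Of the metallothioneins, Mt1 (ENSMUSG00000031765, chr8:94179089-94180325) had 9.38, 64.8, 138 and 651 FPKM in pools 1 to 4. The astrocyte-led cells 11 and 14 had 1373 and 1594 FPKM, above each of the other 26 cells. Next came cell 15 (motile cilia) at 944 FPKM and the endothelial-led cell 6 at 692. Endothelial-led cells covered 0.213 to 692 FPKM, so cells of this list were far from uniform. Cell 9, the other cell led by motile cilia, had Mt1 listed at 0. All of cells 23 to 28 had Mt1 listed at 0, and in cells 18 to 22 only cell 19, at 477 FPKM, stayed above 0 under the 2% limit.

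Mt2 (ENSMUSG00000031762, chr8:94172618-94173567) was lower on the whole and followed Mt1. It was listed at 0 in pool 1 and had 92.2, 53.7 and 216 FPKM in pools 2, 3 and 4. The highest cells were cell 11 at 564, cell 14 at 361 and cell 15 at 319 FPKM. All 3 are led by astrocyte or motile cilia markers, and they were also the 3 highest for Mt1. Then came endothelial-led cells 17 and 7 with 163 and 141 FPKM and oligodendrocyte-led cell 4 with 123. Mt2 was listed at 0 in each of cells 18 to 28. Over 28 cells r between Mt1 and Mt2 was 0.71 (rho 0.73), with both found in 9 cells. Over cells 1 to 17 it was 0.67, so it does not rest on the shared zeros of cells 18 to 28. There were exceptions: cell 3 had 190 FPKM of Mt1 and 0.271 of Mt2, and cell 13 had 137 and 0.198.

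Mt3 (ENSMUSG00000031760, chr8:94152607-94154148) had 144, 83.1, 348 and 859 FPKM in pools 1 to 4 and was found in each. Cells 9 and 15, led by motile cilia, had 2494 and 1837 FPKM, and the astrocyte-led cells 11 and 14 had 1472 and 957. These 4 cells lay above all 13 others of cells 1 to 17, of which the highest was cell 5 (choroid plexus) at 438 FPKM. Cell 8, led by endothelial markers, had 348 FPKM, while 5 of the 8 endothelial-led cells had Mt3 listed at 0. Cell 10 had 154 FPKM, and the oligodendrocyte-led cells 12 and 13 had 45.8 and 38.0. In cells 18 to 28 it was never found. Mt3 shared less with Mt1 (r = 0.32) than Mt2 did, and over cells 1 to 17 this r was 0.025. Against Slc40a1, r was −0.26 over 28 cells and −0.71 over cells 1 to 17, and the 2 were found together in 2 cells. Mt4, the fourth metallothionein of the cluster, was listed at 0 in every library.

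Fth1 and Trf were alike only without the 2 library sets: r was 0.29 over 28 cells and 0.81 over cells 1 to 17, where the oligodendrocyte-led cells hold the 3 highest values of both. Cells of a leading list share many genes and a library set shares its background, so these correlations describe the cells and carry no p.

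**Figure D3:**
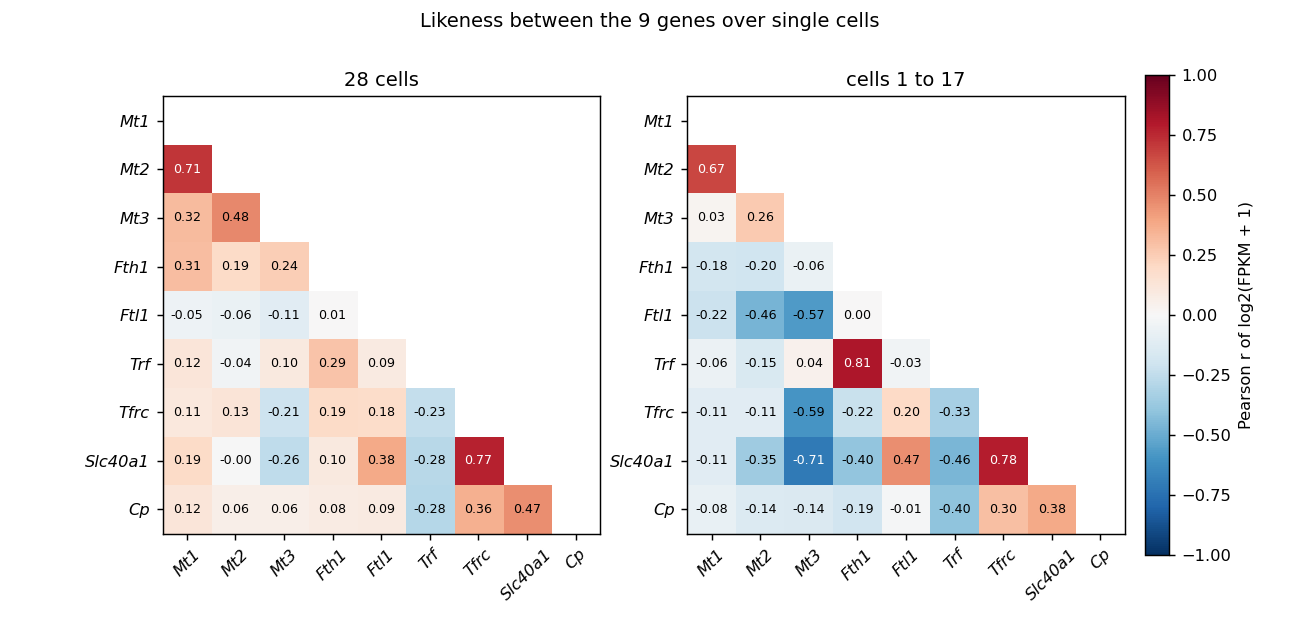
Pearson r of log2(FPKM + 1) between the 9 genes over all 28 cells (left) and over cells 1 to 17 (right). Mt1 with Mt2 (0.71 and 0.67) and Tfrc with Slc40a1 (0.77 and 0.78) keep their r in both, and Fth1 with Trf goes with the choice of cells (0.29 and 0.81).

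The protein-coding genes whose pattern over the 28 cells was most like each member were sought among 10151 genes found in at least 3 cells, by Pearson r. For Slc40a1 they were Gimap6 (r = 0.93), Tinagl1 (0.90) and Pglyrp1 (0.88), all with their highest level in endothelial-led cell 1. For Tfrc they were Eif3f, a translation initiation factor (0.82), Scarb1, a lipoprotein receptor (0.75), and Unc45b (0.74). For Cp they were Cnksr3 (0.82), Exoc6 (0.81) and Nploc4 (0.77). For Trf, after the overlapping Gm20425, came Cln3, a lysosomal membrane protein (0.87), and Ppfibp2 (0.87), both highest in cell 18. For Mt3 they were Tusc3 (0.92), Atp1b2, a sodium pump subunit of glia (0.87), and Cdk2ap2 (0.87). For Mt2 they were Gja1, the gap junction protein connexin 43 of astrocytes (0.79), Eps8 (0.78) and Abcb9 (0.77), and for Mt1 Cyfip1 (0.83), Lpcat3 (0.74) and the transcription factor Bhlhe40 (0.73). Fth1 and Ftl1, present everywhere, had weaker partners: Hmgb1 (0.62), Rps6 (0.62) and Ppp1cb (0.61) for Fth1, and Rps3a1 (0.72), Ifnar1 (0.60) and Ubb (0.59) for Ftl1. By Spearman rho the named genes ran from 0.28 (Hmgb1 with Fth1) to 0.87 (Atp1b2 with Mt3).

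Over cells 1 to 17, with 9184 genes searched, 8 of the genes named above stayed among the 3 most alike: Cyfip1 (0.86) and Bhlhe40 (0.69) for Mt1, Eps8 (0.75) and Gja1 (0.71) for Mt2, Tusc3 (0.91) for Mt3, Scarb1 (0.78) for Tfrc, Gimap6 (0.91) for Slc40a1 and Cnksr3 (0.80) for Cp. The new names were Wdr17 (0.71) for Mt1, Per3 (0.72) for Mt2, and Sox9, a transcription factor of astrocytes and neural stem cells (0.86), and Enah (0.85) for Mt3. For Trf they were Rab6b (0.98), Prkcz (0.97) and Adcy5 (0.95), and for Fth1 Gm20425 (0.92), Dirc2 (0.91) and Rce1 (0.91). Tfrc gained Ifnar2 (0.79) and Fmnl3 (0.78), Slc40a1 gained Degs2 (0.94) and Cd151 (0.88), and Cp gained Siah1b (0.83) and Siah1a (0.82). For Ftl1 the most alike gene was Gm10116 (0.99), a copy of Ftl1 itself, followed by Hnrnph2 (0.81) and Dhx32 (0.79). By Spearman rho the genes named over cells 1 to 17 ran from 0.46 (Siah1b with Cp) to 0.98 (Gm10116 with Ftl1). They were found in 3 to 17 of these cells, with Gm20425, Rce1, Siah1b and Siah1a in 3 each.

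Ferritin genes have many processed copies in the mouse genome, made by reverse transcription of the messenger RNA. Transcripts of Fth1 and Ftl1 were matched against the GENCODE M21 transcripts, and loci of at least 75% identity over at least 50% of the coding length were called copies. The first 60 coding bases of each parent, and the bases of its most abundant copies aligned to them, are shown because their likeness bears on where a read can be placed. Differences from the parent are in capitals:
Fth1, chromosome 19: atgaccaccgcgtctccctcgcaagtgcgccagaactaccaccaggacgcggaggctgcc
Gm6977, chromosome X: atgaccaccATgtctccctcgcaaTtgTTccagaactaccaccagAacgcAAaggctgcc
Fth-ps2, chromosome 6: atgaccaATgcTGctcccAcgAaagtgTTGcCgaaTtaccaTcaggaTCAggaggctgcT
Ftl1, chromosome 7: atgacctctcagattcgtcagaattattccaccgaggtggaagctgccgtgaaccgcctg
Gm10116, chromosome 13: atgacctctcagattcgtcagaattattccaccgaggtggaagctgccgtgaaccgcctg
Gm15590, chromosome 17: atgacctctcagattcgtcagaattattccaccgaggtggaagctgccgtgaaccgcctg
Ftl2, chromosome 4: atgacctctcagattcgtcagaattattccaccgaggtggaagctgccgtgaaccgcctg
The Fth1 copies differ from the parent at 8 and 16 of the 60 bases, and the 3 Ftl1 copies at 0.

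For Fth1 the table held 3 such loci: Gm6977 (chrX:90744546-90745062, 90.5% identity), Fth-ps2 (80.5%) and Ftmt, the mitochondrial ferritin gene, which was listed at 0 in every library. Gm6977 averaged 478 FPKM in pools and 484 FPKM in cells, and its highest value was 3574 FPKM in cell 12, the cell with the most Fth1. The copies made up 12.4%, 13.7%, 1.15% and 1.07% of the FPKM summed over Fth1 and its copies in pools 1 to 4. In cells 1 to 17 this share was 11.6% to 16.7%, in cells 18 to 22 0 to 0.0044%, and in cells 23 to 28 6.32% to 9.42%. The ranges of these 3 sets of cells did not overlap, and pools 1 and 2 lay in that of cells 1 to 17. Gm6977 followed Fth1 with r = 0.73 over 28 cells and 0.99 over cells 1 to 17.

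For Ftl1 there were 15 such loci, and they took a larger share: 37.6%, 37.8%, 7.95% and 9.23% in pools 1 to 4, 32.5% to 47.3% in cells 1 to 17, 0.315% to 0.710% in cells 18 to 22 and 26.2% to 49.2% in cells 23 to 28. Gm10116 (chr13:74406396-74407317) matched 94.0% of the Ftl1 transcript at 99.6% identity, is annotated as protein coding, and averaged 149 FPKM in pools and 222 FPKM in cells. Gm15590 (chr17:6131854-6132405, 99.1% identity) averaged 46.9 FPKM in pools and 78.7 FPKM in cells, and Ftl2 (chr4:125504288-125504839, 98.7%) averaged 37.1 FPKM in pools and 64.4 FPKM in cells. Over 28 cells Gm10116, Gm15590 and Ftl2 followed Ftl1 with r of 0.58, 0.63 and 0.60, and over cells 1 to 17 each did so with r = 0.99. All processed pseudogenes together held 9.94%, 13.2%, 3.06% and 1.85% of FPKM in pools 1 to 4, 5.002% to 14.5% in cells 1 to 17, 0.0826% to 0.268% in cells 18 to 22 and 5.88% to 10.5% in cells 23 to 28. Cells 18 to 22 were lowest for these and for the copies of both ferritins, but in cells 23 to 28 the median was below that of cells 1 to 17 for all processed pseudogenes (6.81% against 10.1%) and above it for the Ftl1 copies (44.3% against 38.0%). Whether reads of the parents were counted at the copies was not tested, since the files hold no reads.

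**Figure D4:**
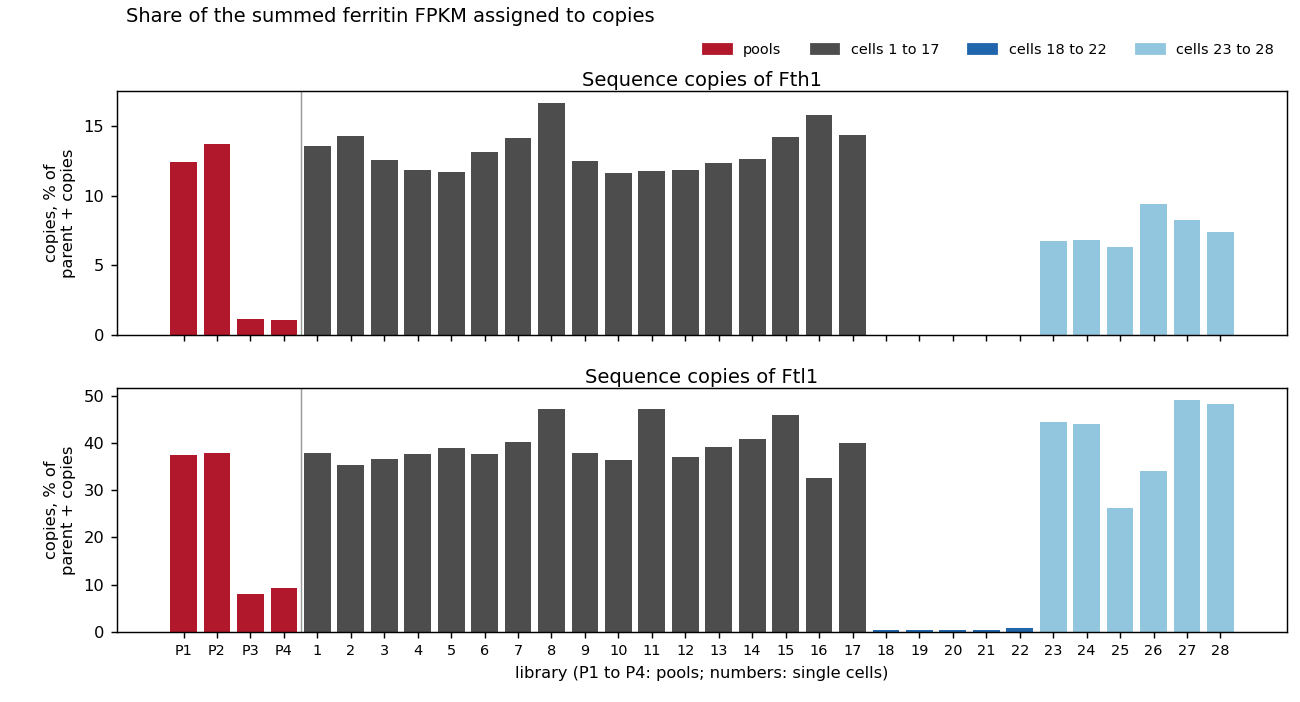
Share of the FPKM summed over a ferritin gene and its sequence copies that was assigned to the copies, in 4 pools (left) and 28 cells, for Fth1 (top) and Ftl1 (bottom). Pools 1 and 2 resemble cells 1 to 17, pools 3 and 4 are lower (1.15% and 1.07% for Fth1), and cells 18 to 22 are near 0.

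An annotated microRNA locus inside Ftl1 had a higher FPKM than Ftl1 itself in 30 of 32 libraries, all but cells 11 and 15. These loci were chosen after their values were seen. Gm22133 (chr7:45458089-45458197), 109 bases on the same strand as Ftl1, had 1869 to 14021 FPKM in pools and 149 to 16914 FPKM in cells, and followed Ftl1 with r = 0.83 over 28 cells. At 109 bases this locus is shorter than the fragment of 200 bases assumed for depth. FPKM scaled to so short a length may not compare with that of Ftl1, so the higher FPKM does not show more RNA there. In all, 18 loci annotated as microRNA in the table matched 91 to 111 bases of the Ftl1 transcript, and 12 of them were found in at least 1 library. Among them is Mir692-2a on chromosome 4, which overlaps Ftl2, with 753 FPKM on average in pools and 1230 FPKM in cells. The mature miRNA of that family, from RefSeq (GRCm38.p6, chr4:125504805-125504825, seed in capitals), stands below with the stretch of the Ftl1 transcript that has the same letters, which ends 11 bases before the end of the coding sequence:
mmu-miR-692: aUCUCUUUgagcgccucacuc
Ftl1, chromosome 7: atctctttgagcgcctcactc
The Ftl1 stretch had 0 differences from the mature sequence over its 21 bases. These FPKM values therefore cannot be told apart from the messenger RNA of Ftl1 or its copies.

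Pools were set beside single cells as log2 of the ratio of their means, with 1 added to each mean. The median over the 9 members was 0.55, against 0.06 over all 19851 genes. Trf was the only member past 2-fold, at 1.38, and none was lower by 2-fold. Over all genes, 12.9% were higher and 13.9% lower by 2-fold in pools. These calls depend on the measure. With the mean of log2(FPKM + 1) in place of the mean FPKM, 8 members were higher by 2-fold, all but Ftl1, with a median of 2.51. The median of all genes was then 0.95, itself just under 2-fold. The share of all genes past 2-fold by this measure is not given here, so the count does not set the members apart. With libraries scaled to the same upper quartile none was higher and Ftl1 was lower. The remaining ratios were 0.94 for Cp, 0.59 for Fth1, 0.56 for Mt2, 0.55 for Tfrc, 0.44 for Slc40a1, 0.37 for Mt3, −0.09 for Mt1 and −0.25 for Ftl1.

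The pools differed more from each other than their mean did from the cells. Single pools over the mean of the cells ran from −5.90 to 2.87 for Trf (pools 3 and 1), from −5.96 to 1.80 for Mt2 and from −1.14 to 1.497 for Fth1. The SD over pools was 3.99 for Trf and 1.20 for Ftl1, the largest and the smallest, and exceeded the size of the ratio for each of the 9 genes. For 6 of the 9 (Mt2, Mt3, Fth1, Trf, Tfrc and Slc40a1), 2 pools lay above the mean of the cells and 2 below. Without pool 1 the ratio of Trf was 0.05 and that of Cp 1.35, so Cp was then the only member higher by 2-fold, and without pool 4 that of Mt1 was −1.69. Without cell 1 the ratio was 2.33 for Cp, 1.17 for Tfrc and 1.12 for Slc40a1, and without cell 11 that of Mt2 was 1.07. Against cells 1 to 17 the median of the members was −0.15 and that of all genes −0.08, no member passed 2-fold, and 9.88% of genes were higher and 7.09% lower by 2-fold. In libraries of several cells, fewer cells of a type and less RNA per cell cannot be told apart. The oligodendrocyte markers had means of 8.78, 5.95, 1.48 and 9.24 in pools 1 to 4, with 10, 8, 5 and 11 of 11 found. Like Trf and Fth1, they were higher in pools 1 and 4, but pool 2 had less Fth1 than pool 3. The endothelial markers had means of 1.03, 8.24, 8.69 and 1.48, with 3, 12, 12 and 5 of 12 found, and like Tfrc and Slc40a1 were higher in pools 2 and 3. The astrocyte markers had means of 1.502, 1.51, 1.72 and 6.90, with 4, 6, 6 and 12 of 12 found, and Mt1, Mt2 and Mt3 were each highest in pool 4. Other lists shared these orders. Choroid plexus markers, with means of 7.54, 1.22, 1.90 and 6.33, were also higher in pools 1 and 4. Markers of motile cilia (2.43, 3.67, 4.41 and 5.08) and of neural stem cells (2.49, 3.51, 4.41 and 5.13) were also highest in pool 4. The part of these markers in the ratios was not tested.

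**Figure D5:**
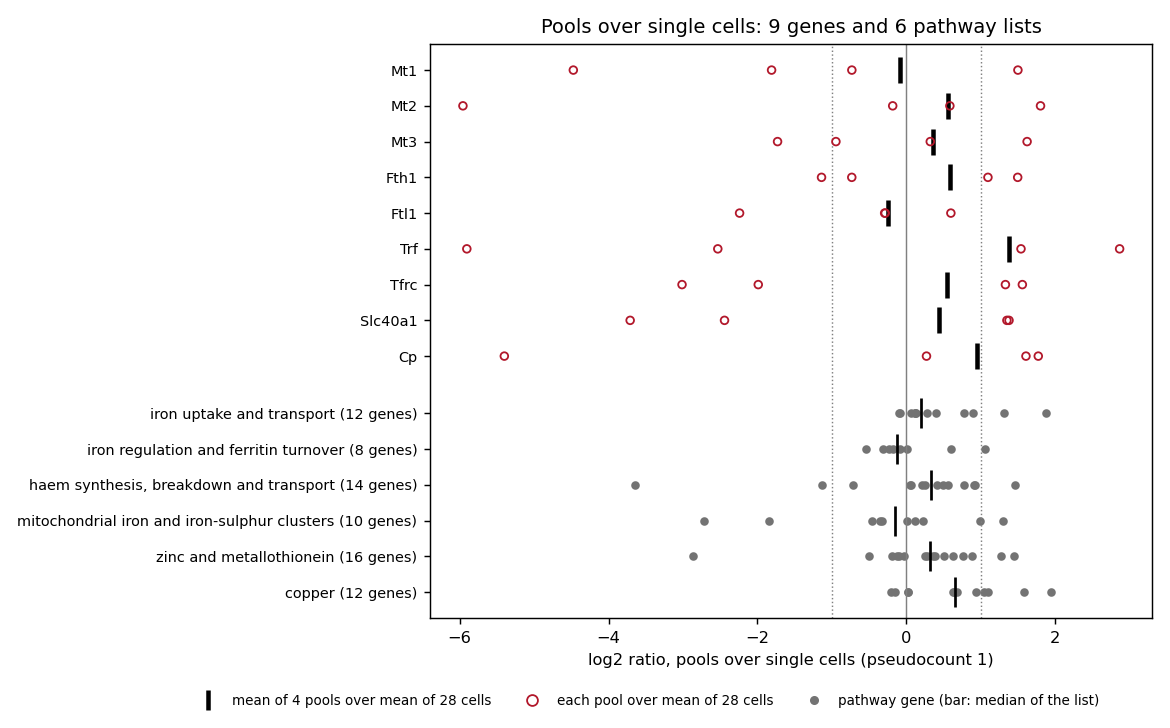
Log2 ratio of pools over single cells for the 9 genes (top: bars for the mean of the pools, open circles for each pool over the mean of the 28 cells) and for the genes of 6 pathway lists (bottom: points for genes, bars for medians). Dotted lines mark 2-fold. The circles of most genes lie on both sides of 0, and only the bar of Trf, at 1.38, lies past 2-fold.

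The wider pathways were counted from 6 lists with 86 genes, of which 83 were in the table and 72 were found in at least 1 library. Of the 72, 11 were higher and 5 lower by 2-fold in pools, with a median log2 ratio of 0.23, where 12.9% and 13.9% of all genes were higher and lower. Of the genes past 2-fold named below, 9 were chosen after their values were seen. In iron uptake and transport, 12 of 15 genes were found. Snx3, which recycles the transferrin receptor, was the most abundant, with 183 ± 122 FPKM in pools (SD, n = 4) and a mean of 168 FPKM in cells. Steap1, of a family of metalloreductases (1.87), and the metal importer Slc39a8 (1.32) were higher in pools. Tfr2, Ltf and Hephl1 were not found.

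In iron regulation and ferritin turnover, 8 of 13 genes in the table were found. The iron chaperones Pcbp1 and Pcbp2 averaged 145 and 72.6 FPKM in pools and 154 and 106 FPKM in cells. Bmp6, a ligand that induces hepcidin in liver, was higher in pools (1.06). Hepcidin itself (Hamp, Hamp2) and Hfe2, Tmprss6 and Ftmt were listed at 0 throughout. In haem metabolism 14 of 15 genes were found, all but Hpx. Slc48a1, a haem transporter, averaged 233 FPKM in pools and 196 FPKM in cells, and Hmox2, the constitutive haem oxygenase, 122 FPKM in pools and 200 FPKM in cells. The cell mean of Hmox2 rested on cell 19 at 3537 FPKM, and without it was 76.0 FPKM, below that of the pools. Cpox, an enzyme of haem synthesis, was higher in pools (1.46), and Ppox, the next enzyme (−3.65), and Blvrb (−1.13) were lower. Of the 10 genes of mitochondrial iron, all found, Iscu, the scaffold of iron-sulphur cluster assembly, averaged 66.9 FPKM in pools and 33.1 FPKM in cells (20.8 without cell 7). The mitochondrial iron importer Slc25a28 (1.30) was higher in pools, and Glrx5 (−2.72) was lower.

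In the zinc list, 16 of 18 genes were found, with Mt4 and Slc30a3 under FPKM of 1 in every library. The zinc importers Slc39a6 and Slc39a7 had the highest means over all 32 libraries, with 8.93 and 49.5 FPKM in pools and 71.3 and 56.7 FPKM in cells. For Slc39a6 this rank came from cell 26: without it the cells averaged 19.2 FPKM, and in pools Slc39a10, named after its values were seen, stood above it at 37.5 FPKM. Mtf1, the transcription factor that binds metal-responsive elements (1.44), and the importer Slc39a4 (1.279) were higher in pools, and Slc39a6 (−2.87) was lower. All 12 copper genes were found. Sod1, the copper and zinc superoxide dismutase, averaged 727 FPKM in pools and 715 FPKM in cells, and Atox1, a copper chaperone, 336 FPKM in pools and 216 FPKM in cells. In this list 4 genes were higher in pools, namely Sco1 (1.95) and Cox17 (1.59), both of copper delivery to cytochrome oxidase, the chaperone Ccs (1.10) and the secreted dismutase Sod3 (1.04), and none was lower.

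The lower genes named above were each far higher in 1 cell than in the pools. Ppox had 2295 FPKM in cell 27, Slc39a6 1478 in cell 26, Blvrb 961 in cell 2 and Glrx5 720 in cell 21. Without its highest cell the log2 ratio was −1.06 for Ppox, −1.03 for Slc39a6, 0.64 for Blvrb and 0.55 for Glrx5. Ppox and Slc39a6 thus stayed lower by 2-fold in pools, and 6 cells had more Ppox and 7 more Slc39a6 than any pool. Of these, only Blvrb (−1.84) stayed lower by 2-fold against cells 1 to 17. Of the 11 higher genes, Steap1 (1.20), Mtf1 (1.16) and Sco1 (1.74) stayed higher by 2-fold against cells 1 to 17. Single pools carried most of the higher calls: 8 of the 11 came under 2-fold without 1 pool. Without pool 1 these were Steap1, Cpox, Slc39a4, Bmp6 and Ccs, without pool 2 Slc39a8, Mtf1 and Sod3, and without pool 4 Bmp6, Ccs and Sod3, with lowest ratios between 0.15 for Bmp6 and 0.95 for Steap1. Slc25a28, Cox17 and Sco1 kept at least 1.13, 1.44 and 1.51. Of the lower genes named, Blvrb came under 2-fold without pool 1 or without pool 2, with a smallest change of −0.73.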

How the data were processed

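The authors deposited 1 table of FPKM per gene for 4 pools of 10 cells and 28 single cells, made with TopHat 1.41 and Cufflinks 2.02, per the submitters' processing notes. Those notes name build mm9, but the table's loci are on GRCm38: 96.2% of its 38989 gene IDs occur in GENCODE M21, and 99.7% of these overlap the same gene there. Loci are printed 1-based on GRCm38. The sources used here give no read layout or strand setting. Depth was estimated from the smallest steps in 2351 genes with an assumed fragment of 200 bases, and is approximate.

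Values of 19 repeated gene IDs were summed. FPKM are not counts and no animals are named, so no test was run. Ratios are log2((mean of pools + 1)/(mean of cells + 1)), which understates changes of low genes, over genes at FPKM of at least 1 in any library. Correlations use log2(FPKM + 1). No doublet caller was run. No 2 libraries held identical values. Copies were matched with blastn 2.17.0, and Python 3.11.15, pandas 2.3.3, numpy 2.4.6, scipy 1.17.1 and matplotlib 3.10.9 were used. The code for ratios and correlations was run on shuffled data with planted changes, which checks the code and not the results.

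The 9 members, 14 marker lists and 6 pathway lists were chosen with earlier results of these data known. Named genes were the members, the 3 protein-coding genes most like each over 28 and over 17 cells, the 2 most abundant, the most changed and the unfound genes of each pathway list, and the 3 most abundant ferritin copies. Fth-ps2, Ftl2, Ftmt, the other pathway genes past 2-fold and the microRNA loci were added after their values were seen. Alternatives were other pseudocounts, scalings, filters and copy limits, leaving out each pool or cells 18 to 28, the 2% limit and, added after seeing the data, leaving out each cell. The values of 1 gene of the pathway lists are not reported here.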

Additional observations from a re-analysis of the deposited data

How the results depend on the processing

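The median log2 ratio of the 9 members (0.55) moved by less than the SD over pools under 9 alternatives of filter, pseudocount, scaling, copies and cells. It ran from −0.15 without cells 18 to 28 to 0.74 with libraries scaled to the same FPKM sum. The pools differed widely, so this is a loose limit that even a change of sign did not pass. With the mean of log2(FPKM + 1) the median of the members was 2.51, where all genes stood at 0.95, just under 2-fold. By this measure 8 members were higher by 2-fold, all but Ftl1. The shares of all genes past 2-fold are not given for these alternatives, except against cells 1 to 17, so the counts below describe the members only. The count of members higher by 2-fold (1, Trf) was 2 with the same FPKM sum (Trf and Cp), 0 with the same upper quartile and 0 without cells 18 to 28. The count lower (0) was 1 with the same upper quartile (Ftl1). Without each pool in turn the median was 0.37 to 0.63, and 1 to 2 members were higher (Cp in place of Trf without pool 1, both without pool 4) and 0 to 1 lower (Mt1 without pool 4). Without each cell the median was 0.495 to 0.58 and 1 to 4 members were higher: 4 without cell 1 (Trf, Tfrc, Slc40a1 and Cp), and 2 without cell 11 (Mt2 and Trf) or without cell 15 (Trf and Cp). The share of values of the members in cells that were found (52.4%) was 63.9% at FPKM of at least 0.1, 44.4% at 10 and 66.0% without cells 18 to 28. With copies over at least 80% of the transcript, 1 Ftl1 copy was left, with a median share of 23.5%, and no Fth1 copy. The cause of these changes was not tested. The correlation of Mt1 with Mt2 was 0.67 to 0.72 by Pearson r under every alternative run, and by Spearman rho 0.73 over 28 cells and 0.76 over cells 1 to 17. Trf, the only member past 2-fold in the main ratio, kept its sign under every alternative. Pathway genes called lower did not all do so. Blvrb and Glrx5 changed sign without their highest cell (0.64 and 0.55), and Ppox and Glrx5 against cells 1 to 17 (0.26 and 0.40). No paired analysis was possible because the results come from no test and pools and cells share only numbers. Low values are limited by depth, at a few fragments per FPKM of 1.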
